A study of Mus musculus with 10 samples.

Results

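The cells described here are macrophages with an aberrant surface phenotype from mice of a conditional Bach2 knockout line, set against macrophages of the controls of that line. They were chosen by their labels alone and make up 4 of the 10 samples, 2 labelled as the aberrant fraction of the knockout and 2 as the control. In this line the gene for Bach2, a repressor of transcription best known in lymphocytes, is floxed, and Cre is driven by Cd4, a promoter active in T cells, so the macrophages themselves need not have lost Bach2. The labels do not say which alleles the conditional controls carry. All mice were of the C57BL/6 background, labelled female and 16 weeks old, and every sample is labelled as alveolar macrophage. The other samples, 2 each, are macrophages of the same knockout mice with a normal surface phenotype (normal-marker), of wild-type mice and of germline Bach2 knockout mice. They are used here only to show where a level in the aberrant-marker cells stands. The markers that defined the aberrant phenotype are not named in the labels, and levels of surface marker genes can follow from that choice.

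Alveolar macrophages live in the airspaces of the lung, take up surfactant and inhaled particles, burn fatty acids, and depend on GM-CSF and on the nuclear receptor Pparg. Dendritic cells of the lung sample antigen and, on maturation, gain the chemokine receptor Ccr7, raise MHC class II and costimulatory proteins at the surface, and travel to lymph nodes. The NF-kB transcription factors run much of that maturation. In the classical branch, Nfkb1, Rela and Rel are held back by inhibitors such as Nfkbia, and in the alternative branch the kinase Map3k14 (NIK) drives the processing of Nfkb2 and its entry into the nucleus with Relb.

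Values are FPKM, fragment counts scaled by transcript length and library size and summed over the transcripts of each gene. The 2 samples of a group agreed as repeat sequencing runs of 1 library would. On the log2(FPKM + 1) scale, the 2 columns of a group correlated at 0.996 to 0.999 and columns of different groups at 0.845 to 0.929. Of genes at 1 to 3 FPKM, 0.293% to 1.04% were near 0 in 1 column of a pair and not in the other, against 35.3% to 49.7% between groups. At a mean of 20 FPKM or more, 4 genes were at least 4-fold apart between the control columns and 7 between the aberrant-marker columns. Each pair was therefore taken as 2 runs of 1 library, each group as 1 library, and no test between groups was made. Nothing in the labels says how many mice a library came from, so the differences below are between libraries, with no replicate check. The low values put the depth at about 9.17 M fragments a run in the control and 7.71 M in the aberrant-marker library, where a single read on a 2 kb transcript equals 0.0545 and 0.0648 FPKM. The labelled sex of the wild type and the germline knockout was not borne out: the Y-linked gene Eif2s3y was at a mean of 60.8 FPKM in the wild type and 39.9 in the germline knockout, and at 0.146 FPKM or less in every run of the control and aberrant-marker libraries, which held Xist, the transcript of the inactive X, at 3.72 to 10 FPKM. Comparisons with those 2 libraries therefore hold that difference too, and the comparison with the control does not. At an input of 100 pg of RNA, amplified by 18 cycles of PCR, a rare transcript can be missed in 1 library altogether. A gene was called higher or lower where its log2(FPKM + 1) was at least 2 units (4-fold) apart between the libraries in the mean and in every pairing of runs, and the higher library had at least 20 FPKM.

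Of 4682 genes at 20 FPKM or more in either library, 464 (9.91%) were called higher in the aberrant-marker library and 426 (9.1%) lower. Between wild type and conditional control, 106 of 4370 genes were called higher (2.43%) and 133 lower (3.04%). The median log2 difference over the 4682 genes was -0.03, and 2505 of them (53.5%) were under 2-fold apart. Against the wild type, 539 genes (11.4%) were higher and 443 (9.41%) lower, and against the normal-marker library 456 (9.91%) and 369 (8.02%). Set against all 3 references at once (conditional control, wild type and normal-marker), 270 of the higher and 172 of the lower genes kept their call. Of the higher genes, 107 were under 0.05 FPKM in the control, the worth of less than 1 read on 2 kb, and 5 of these 107 were at 1 FPKM or more in the wild type. Of the lower genes, 65 were under 0.05 FPKM in the aberrant-marker library.

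**Figure D1:**
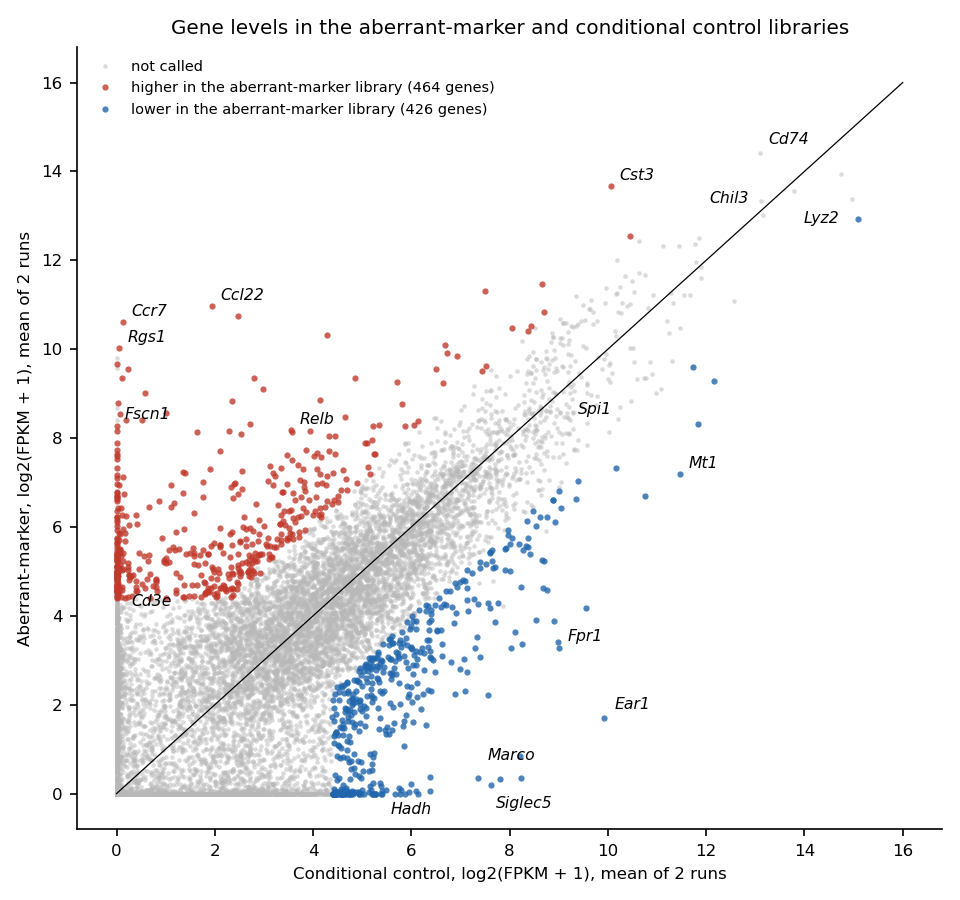
Gene levels in the 2 libraries. Each point is a gene, with its mean over 2 runs on log2(FPKM + 1), conditional control on the x axis and aberrant-marker on the y axis. Red points are the 464 genes called higher, blue points the 426 called lower, and the line marks equal levels. Ccr7 and Rgs1 lie at the left edge and Marco and Siglec5 at the bottom edge, while Chil3 and Spi1 lie near the line.

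The label alveolar macrophage was checked against its defining markers Marco, Siglec5, Ear1, Pparg and Car4. In the aberrant-marker library all of them were below the control, from 0.0679% of its level for Siglec5 to 32.7% for Pparg. Of 35 identity genes at 20 FPKM or more in the control, 11 kept more than 50% of that level and 6 under 1%. Marco, a scavenger receptor, was at 224 and 224 FPKM in the control runs and at 0.144 and 0.372 in the aberrant-marker runs. Siglec5, the entry for the sialic acid receptor Siglec-F, was at 199 and 194 against 0.0526 and 0.215 FPKM. Ear1, a ribonuclease gene, was at 978 and 955 against 1.08 and 3.46 FPKM. The runs of the libraries do not overlap for any of these genes, and the aberrant-marker values of Marco and Siglec5 are those of a few reads. Pparg, at 95.3 and 95.3 FPKM in the control, stood at 29.8 and 32.6, and Car4, a carbonic anhydrase, at 43.3 in both runs against 316 and 299. The general macrophage genes Emr1 (the F4/80 antigen, Adgre1), 138 and 139 against 24.2 and 23.4 FPKM, and Fcgr1 (CD64), 23.5 and 23.7 against 7.79 and 7.36, were lower too, and only Emr1 was called. Csf1r, the receptor for the macrophage growth factor Csf1, at 83.8 and 84.2 against 48.5 and 51.2 FPKM, and Spi1, the myeloid master factor PU.1, at 601 and 594 against 339 and 333, were kept at more than 50% of the control.

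Defining markers of dendritic cells and T cells were present as well. Flt3, the receptor for a growth factor of dendritic cells, was listed at 0 in both control runs and at 37.2 and 37.5 FPKM in the aberrant-marker runs, and Zbtb46, a dendritic cell transcription factor, was at 0.0454 and 0.0421 against 34 and 34.4. Of 10 measurable pan-dendritic genes, that is with 20 FPKM or more in either library, 9 were called higher and 0 lower, beside the 9.91% and 9.1% of all genes, which are the background for every count of list members that follows. A member at 20 FPKM in 1 library only is counted because it was high there, so these counts describe the measurable members and not whole lists. Of the 10, 3 were at 20 FPKM or more in the control and all 10 in the aberrant-marker library. The T cell genes Cd3e (17.5 and 17.9 FPKM), Cd3d (13.7 and 18.7), Cd3g (27.2 and 20.9), Lck (30.3 and 28.8) and Lat (38.9 and 36.9) were all seen, and Cd3e was listed at 0 in the control. The 34 genes of the T cell list summed to 263 and 262 FPKM in the aberrant-marker runs, against 3.16 and 3.48 in the control and 0.516 to 5.87 in the 6 other runs. Of the 34, 21 were at 1 FPKM or more in the aberrant-marker library and 1 in the control. The summed list was 0.0394% and 0.0395% of the FPKM of its runs, which is the share of these 34 genes and not of all RNA from T cells. The part that T cell RNA plays in the results below was not tested. In bulk RNA, a mixture of cells and a change within each cell cannot be told apart, nor can fewer cells of a type and less RNA per cell.

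Defining genes of most other lineages were absent from both libraries. Cd79a and Ms4a1 of B cells, Ncr1 of natural killer cells, Ly6g of neutrophils, Sftpc of alveolar epithelium, Cdh5, Cldn5 and Kdr of endothelium, Epx and Cpa3 of eosinophils and mast cells, and Alas2 of erythroid cells were listed at 0 in both. The 17 genes of the B cell list summed to 17.5 and 18 FPKM in the aberrant-marker runs and to nearly 0 in the control, and the 18 of natural killer and innate lymphoid cells to 38.9 and 37.8 against 2.56 and 2.68. The neutrophil list summed to 64.4 and 70.5 FPKM in the control and 47.1 and 56.5 in the aberrant-marker runs. The list of plasmacytoid dendritic cells summed to 138 and 177 FPKM in the control and to 452 and 143 in the aberrant-marker runs, which differed from each other. The epithelial list summed to 270 and 270 FPKM in the control and 299 and 307 in the aberrant-marker runs, with Scgb1a1, a club cell secretory protein, at 39.7 and 31.8 FPKM. Epcam, an adhesion protein on that list, was lower (128 and 123 against 27.2 and 24.7 FPKM). Bach2 could not check the genotype: it was at 0.0246 and 0.0126 FPKM in the control and 0.0146 and 0.026 in the aberrant-marker runs, less than 1 read on a 2 kb transcript is worth.

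**Figure D2:**
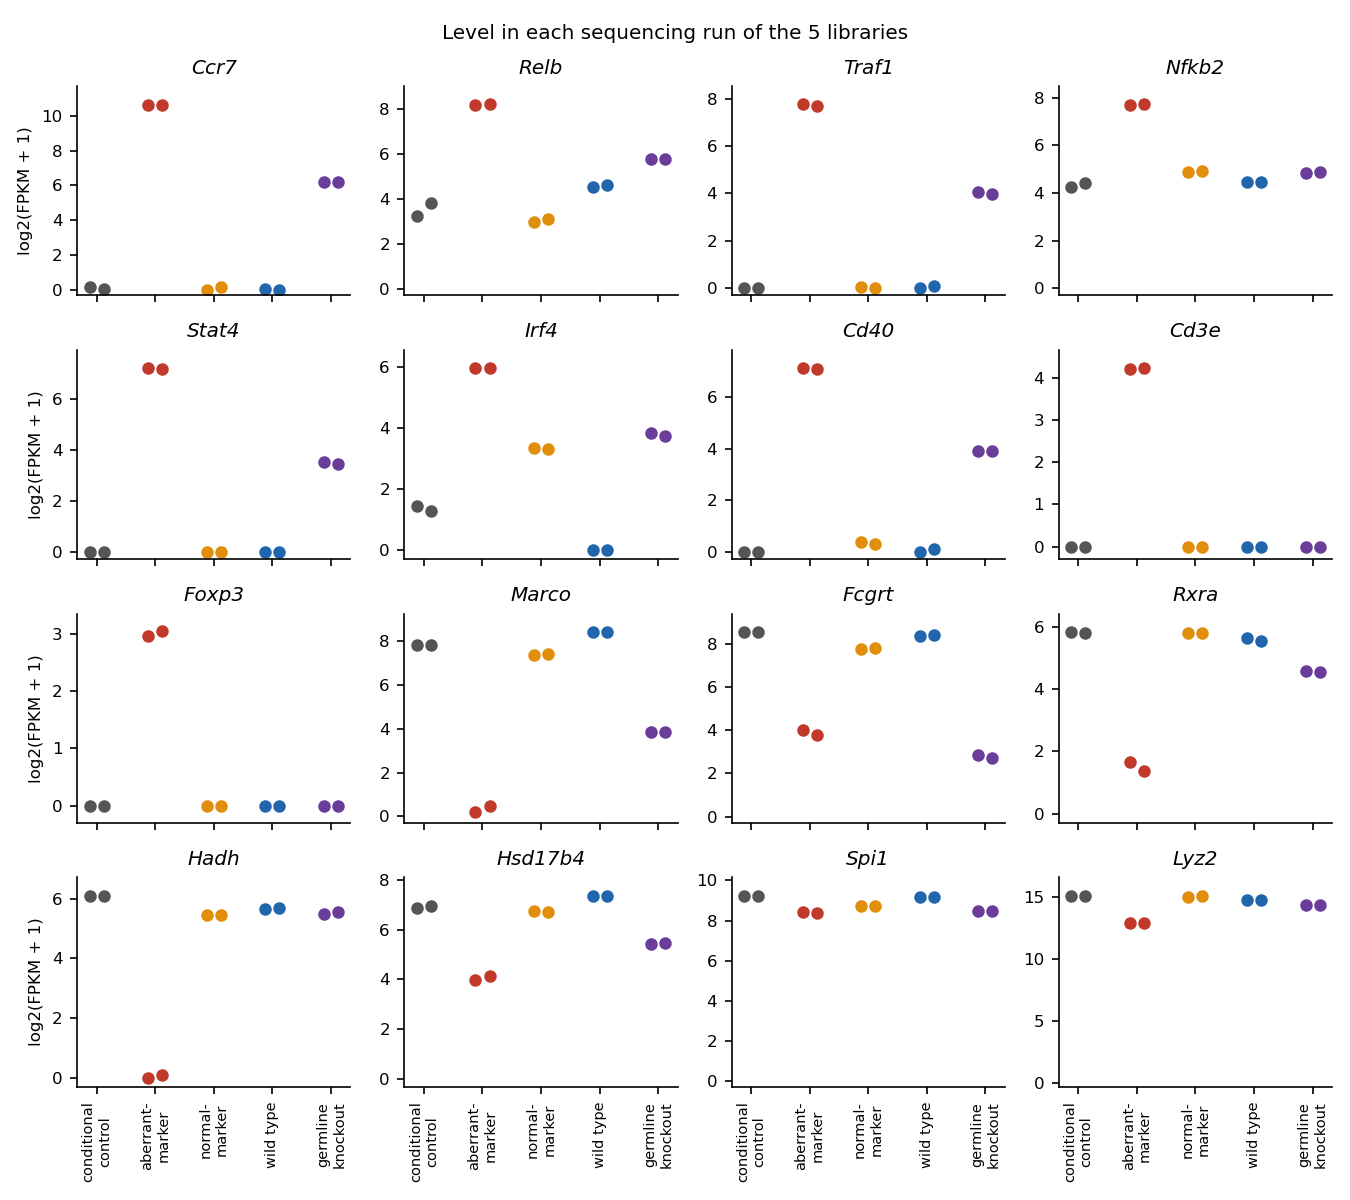
Level of 16 genes in each sequencing run, on log2(FPKM + 1). Each panel is a gene and each point a run, 2 for each of the 5 libraries. The 2 runs of a library lie close together. Ccr7, Traf1, Stat4, Cd40, Cd3e and Foxp3 are highest in the aberrant-marker runs, Marco, Rxra, Hadh and Hsd17b4 lowest there, and Fcgrt is lower there than in the 3 references and higher than in the germline knockout.

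The genes of alveolar macrophage identity differed widely in how much of their control level was kept. Of 36 measurable members, 19 were called lower and 1 higher. Their median log2 difference was -2.28. Among the 35 that stood at 20 FPKM or more in the control, the aberrant-marker level was a median 18.6% of the control level. Under 1% of it was kept by 6 genes. Besides Marco, Siglec5 and Ear1 these were Cidec, a lipid droplet protein (0.0888%), Perp, a desmosomal protein (0.165%), and Rufy4, an autophagy regulator (0.233%).

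A further 7 kept 1% to 10%: the fatty acid binding protein gene Fabp1 (1.88%), the keratin genes Krt19 (2.27%) and Krt79 (2.89%), Olr1, a receptor for oxidised lipoprotein (4.09%), the Wnt pathway factor Tcf7l2 (4.75%), the cytokine gene Il18 (5.78%) and Ear2 (8.60%). Another 11 kept 10% to 50%, among them Cd9 (13.5%), Cd2 (13.9%), Mrc1, the mannose receptor (21.8%), Pparg (32.7%) and Itgax, CD11c (48.9%). The other 11 kept more. Csf2ra, the ligand-binding chain of the GM-CSF receptor, was at 62.4% of the control, Plin2, a coat protein of lipid droplets, at 62.9%, Chil3, a chitinase-like protein, at 90.5% and the protease gene Ctsk at 93.3%. Of these, 4 were above the control level: Slc39a2, a zinc transporter (108%), Cd36, a fatty acid and lipoprotein receptor (145%), Csf2rb, the signalling chain of the GM-CSF receptor (244%), and Fabp5, a fatty acid binding protein (407%). Slc39a2, at 23.8 and 23.2 FPKM, was below the means of the wild type (66.1) and the normal-marker library (87.6). Cd36, at 193 and 192 FPKM, was near the wild type (188) and below the normal-marker library (218). Csf2rb, at 404 and 389 FPKM, was above both (233 and 174). Fabp5 was called higher, at 335 and 331 against 1357 and 1353 FPKM. It was not called against the wild type, where its mean was 334.7 FPKM, or against the normal-marker library, where its mean was 840.2 FPKM.

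**Figure D3:**
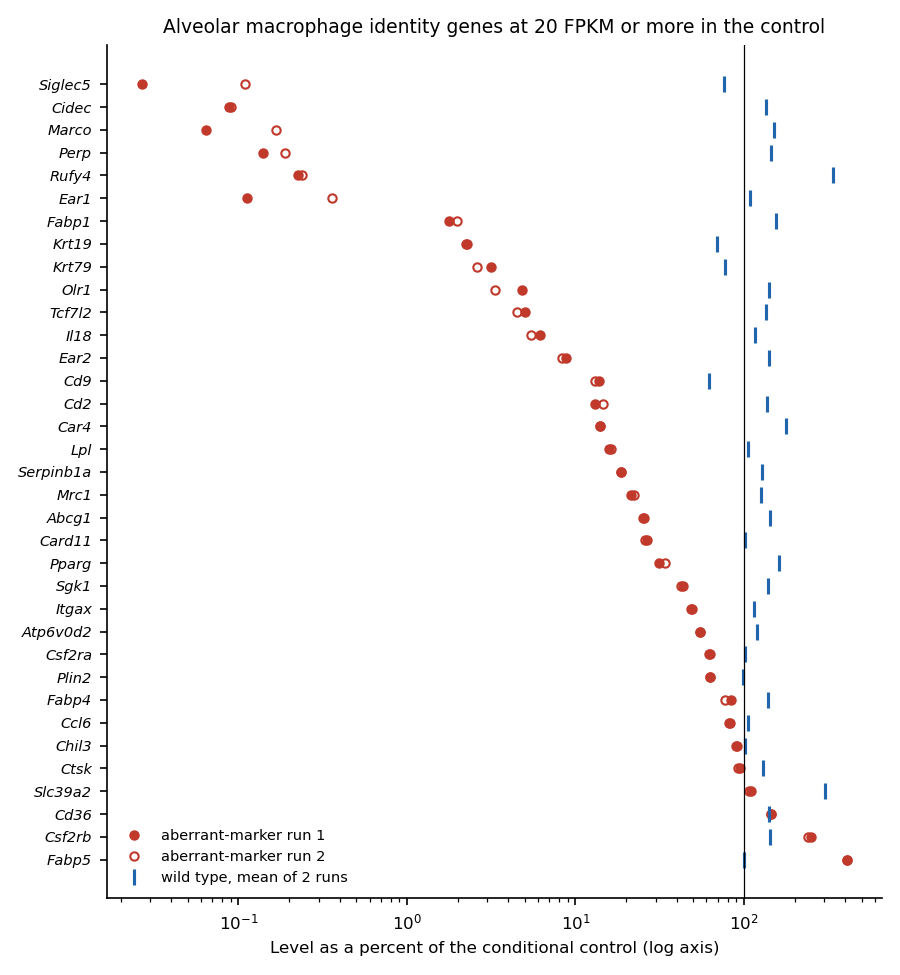
Alveolar macrophage identity genes at 20 FPKM or more in the control, each as a percent of its control mean on a log axis. Red points are the 2 aberrant-marker runs, blue bars the wild-type mean, and the vertical line is 100%. The aberrant-marker levels run from 0.0679% for Siglec5 to 407% for Fabp5. Most wild-type bars lie around the line, and those of Rufy4 and Slc39a2 lie well above it.

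Receptors for uptake and sensing moved down more often than up. Of 51 measurable pattern recognition and endocytic receptors, 15 were called lower and 4 higher, and 11 of the 15 were lower against all 3 references. Fcgrt, the neonatal Fc receptor that returns IgG to the surface, was at 369 and 372 FPKM in the control and 15.1 and 12.7 in the aberrant-marker runs. Scarb1, a receptor for high-density lipoprotein, was at 98.5 and 96.1 against 7.14 and 7.9 FPKM. Mertk, a receptor for dying cells, went from 73.4 and 72.7 to 8.81 and 8.63 FPKM. Nod1, a cytosolic sensor of bacterial cell walls (20.6 and 21 FPKM), and Siglece, an inhibitory sialic acid receptor (38.2 and 37.9 FPKM), were listed at 0 in both aberrant-marker runs. Tlr8, an endosomal RNA sensor, was at 25.7 and 27.1 FPKM in the control and listed at 0 and at 0.0379 in the aberrant-marker runs.

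Receptors that guide cells were called in both directions. Of 24 measurable receptors for chemokines and other attractants, 10 were called higher and 6 lower. In the aberrant-marker library 19 of the 24 were at 20 FPKM or more and in the control 11, and those 11 had a median log2 difference of -2.63. The lower ones included receptors for signs of infection and injury. Fpr1, a receptor for bacterial formyl peptides, was at 523 and 505 against 7.56 and 9.92 FPKM, and Fpr2 at 97.4 and 98.3 against 8.83 and 9.89. C5ar1, the receptor for complement C5a, was at 425 and 442 against 23.4 and 22.6 FPKM, and P2ry13, a receptor for ADP, at 53.3 and 52.7 against 0.144 and 0.0491. All 4 were lower against each of the 3 references.

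The higher ones included receptors that place cells in lymphoid tissue. Beside Ccr7, Gpr183, a receptor for oxysterols, was listed at 0 in the control, the wild type and the normal-marker library and stood at 62.9 and 65.4 FPKM. P2ry10, a lysophospholipid receptor, was at 53.5 and 50.6 FPKM and far under 1 read in the control. Cxcr6, a chemokine receptor also used by T cells, was at 21.3 and 23.2 FPKM against 0. Ptgir, the prostacyclin receptor, was at 91.2 and 94 FPKM against 1.05 and 1.42 in the control, but reached a mean of 61.1 FPKM in the normal-marker library and was not called against it.

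The programme of mature, migrating dendritic cells was the list with the most calls. Of its 52 genes in the table, 43 were measurable, and of these 38 were called higher and 1 lower. In the control 8 of the 43 were at 20 FPKM or more, and in the aberrant-marker library 42, so most entered the count because they were high there. Of the 38, 32 were also higher against both the wild-type and the normal-marker library. The whole list summed to 552 and 540 FPKM in the control runs and 12208 and 12183 in the aberrant-marker runs.

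Ccr7 itself was at 0.124 and 0.0633 FPKM in the control and 1542 and 1585 in the aberrant-marker runs, a log2 difference of 10.48. Less familiar genes were less far apart, at 6.96 to 8.76, and still under 0.2 FPKM in every control run. Cacnb3, a subunit of calcium channels, was at 0.049 and 0 FPKM in the control and at 448 and 439 in the aberrant-marker runs. Mreg, a vesicle trafficking protein, was at 0.0913 and 0.188 against 342 and 337 FPKM. Il4i1, an amino acid oxidase, was at 124 and 123 FPKM and listed at 0 in both control runs. Marcks, a substrate of protein kinase C on the actin list, was at 0.0549 and 0.0561 against 375 and 367 FPKM. In all 4, the wild type (at most 2.09 FPKM, for Cacnb3) stood with the control, and the germline knockout lay between, at 39.9, 55.5, 13.8 and 86.4 FPKM in the same order. The 1 lower member was Cd1d1, described below.

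Of the subset genes of dendritic cells, 8 of 12 measurable on the type 2 list were called higher and 1 lower, and 1 of 6 on the type 1 list was higher and 0 lower. All 12 type 2 genes were at 20 FPKM or more in the aberrant-marker library and 4 of them in the control, and those 4 had a median log2 difference of -1.28. The 8 higher genes were called against each of the 3 references. These were the lectin genes Cd209a, Mgl2 and Clec10a, the transcription factor Irf4, the decoy receptor Il1r2, Tnip3, S100a4 and Ccl17. Mgl2 was at 295 and 275 FPKM and Irf4 at 60.9 and 61.3, against 1.71 and 1.44 for Irf4 in the control and far under 1 read in at least 1 run for Mgl2. The higher type 1 gene was Batf3, which had a mean of 45.9 FPKM in the normal-marker library and was not called against it. Xcr1, the chemokine receptor of type 1 cells, was at 1.62 and 2.56 FPKM in the control and near 0 in the aberrant-marker runs, and Clec9a at 2.68 and 1.12 against 0.65 and 0.59. Irf8, a factor of type 1 cells that macrophages express too, was at 60.9 and 61 against 94.3 and 91.4 FPKM.

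Genes of interstitial and monocyte-derived macrophages were a smaller set. Of 10 measurable interstitial genes, 3 of them at 20 FPKM or more in the control, 6 were higher and 2 lower (Mertk and Mrc1). The higher ones included the complement genes C1qa (listed at 0 in the control and 193 FPKM in both aberrant-marker runs) and C1qb (0.745 and 1.27 against 373 and 377 FPKM). C1qa was at 33.6 FPKM and C1qb at 154 in the germline knockout. The defining monocyte gene Ly6c2 was far under 1 read, and Ccr2, the receptor that brings monocytes out of the marrow, was at 6.47 and 15.9 FPKM in control and aberrant-marker means.

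More than 50% of the measurable genes of the NF-kB system were higher, among them Relb, Nfkb2 and Map3k14 of the alternative branch. Of 20 measurable members, 11 were called higher and 1 lower, 9 of the 11 against all 3 references, beside the 9.91% of all genes. All 20 were at 20 FPKM or more in the aberrant-marker library and 8 in the control.

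Among the factors themselves, Relb was at 8.41 and 13 FPKM in the control runs and 285 and 291 in the aberrant-marker runs. Nfkb2 was at 18 and 20.1 against 206 and 209 FPKM, Nfkb1 at 16.2 and 18 against 127 and 124, and Rel at 3.73 and 4.29 against 33.2 and 33.1. Rela, the fifth member of the family, was at 62.4 and 67.3 against 110 and 112 FPKM, a log2 difference of 0.77, and was not called. So 4 of the 5 family genes were called, each of them against all 3 references.

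Upstream, Map3k14 was at 1.4 and 1.4 against 44.6 and 44.8 FPKM. Its partners Birc2 (3.56 and 3.05 against 45.9 and 45.5 FPKM), Birc3 (15.5 and 15.8 against 103 and 101) and Traf1 (listed at 0 against 215 and 207) bind TNF receptor complexes and were called as well. The shared kinase genes Ikbkb (25.6 and 26.5 against 42.6 and 39.9 FPKM) and Chuk (7.79 and 7.23 against 17 and 16.4) and the scaffold gene Ikbkg (7.41 and 7.52 against 9.6 and 8.23) were not called. The inhibitors of the pathway were high with its activators. Nfkbia was at 180 and 185 against 794 and 778 FPKM, Tnfaip3, the enzyme A20, at 5.54 and 4.87 against 46.6 and 46.8, and Tnip3, an A20 partner, at 0 and 0.0536 against 84 and 84.8. Tnfaip2 alone was called lower, at 198 and 197 against 35.6 and 37.1 FPKM.

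The promoters of the higher genes were searched on both strands for an NF-kB consensus of 10 letters (3 G, any 2 bases, 3 T and 2 C) in RefSeq promoters of the build GRCm38.p6 that run from 250 bases before to 50 bases after a start site. Of 480 promoters of 379 higher genes, 19 (3.96%) held a match, against 7 of 437 (1.60%) for the lower genes, 84 of 4837 (1.74%) for all genes that could be called and 535 of 32851 (1.63%) for all promoters of the table. Those 19 promoters belong to 16 genes. A stricter form with A and C as the 2 free bases, contained in the first pattern, was in 4 promoters of the higher genes (0.833%) and 3 of the lower (0.686%). It was in 13 of 4837 (0.269%) for all genes that could be called and 51 of 32851 (0.155%) for all promoters. For 3 higher genes (an NF-kB factor, a growth factor and a class I gene) and 1 lower gene the surroundings of the match are shown, each as 60 bases of the gene's own strand, 5′ to 3′, with the match in capitals. A match is a description of the letters, not of binding.
Rel, chr11:23771026-23771085, minus strand: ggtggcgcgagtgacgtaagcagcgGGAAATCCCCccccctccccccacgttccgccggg
Csf1, chr3:107760589-107760648, minus strand: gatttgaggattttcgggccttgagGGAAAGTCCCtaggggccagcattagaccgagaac
H2-Q4, chr17:35379418-35379477, plus strand: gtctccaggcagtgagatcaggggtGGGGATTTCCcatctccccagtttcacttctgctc
Ces2c (lower), chr8:104846902-104846961, plus strand: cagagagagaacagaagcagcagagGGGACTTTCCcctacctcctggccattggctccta

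In Rel and Csf1 the match reads on the opposite strand, so that the pattern appears as its reverse complement. The matches begin 91 bases before the start site of Rel, 154 before that of Csf1, 174 before that of H2-Q4 and 141 before that of Ces2c. Csf1, the macrophage growth factor, was at 3.58 and 4.09 FPKM in the control and 30.6 and 28.4 in the aberrant-marker runs. Csf1 was not called against the normal-marker library, where its mean was 9.83 FPKM. Ces2c, a carboxylesterase, was at 22.5 and 23.3 FPKM in the control and listed at 0. The full antioxidant-type site of Bach and Maf factors was in 0 promoters of the higher genes and 0 of the lower. It was in 5 of 4837 (0.103%) for genes that could be called and 51 of all 32851 (0.155%). A wider form with 3 free bases in its middle contains that site. This form was in 2.29% of promoters of the higher genes, 2.97% of the lower, 2.77% for genes that could be called and 3.04% of all. The AP-1 letters TGANTCA were in 8.12% of promoters of the higher genes and 8.01% of the lower. They were in 5.46% for genes that could be called and 7.81% of all, and can overlap the Bach and Maf site.

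Transcription factors of other families changed in both directions. Of 39 measurable factors of myeloid cells, 13 were called higher and 5 lower. Stat4, which carries signals of IL-12 and type I interferon, was listed at 0 in the control, wild-type and normal-marker libraries and at 145 and 141 FPKM in the aberrant-marker runs. Stat5a, which carries those of GM-CSF and IL-2, was at 15.4 and 16.6 against 199 and 205 FPKM. Irf5 was at 53.7 and 56 against 437 and 432 FPKM, and the orphan nuclear receptor gene Nr4a3 was listed at 0 against 160 and 158. Their relatives were not called: Stat3 was at 78.6 and 81.1 against 109 and 110 FPKM, Stat6 at 91.1 and 92.9 against 89 and 88.4, and Stat5b at 10.1 and 11.3 against 27.3 and 26.7.

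The 5 lower factors were Rxra, Rara, Id1, Myc and Runx1. Rxra, the shared partner of Pparg and of the liver X and retinoic acid receptors, was at 56.2 and 55 FPKM in the control and 2.16 and 1.6 in the aberrant-marker runs. Rara, a retinoic acid receptor, was at 39.5 and 45.8 against 3.8 and 4.14 FPKM. Nr1h3, a liver X receptor, was at 51.2 and 49.7 against 22.8 and 18.5 FPKM and was not called against the control. Myc was at 54.8 and 51.1 against 7.21 and 7.4 FPKM, and Runx1 at 54 and 54 against 9.24 and 8.38. Of these 5, Rxra was the 1 lower against all 3 references. Klf4 (25.8 and 24.4 against 29.7 and 27.6 FPKM) and Cebpa (34.1 and 33.7 against 20.1 and 23.1), 2 further factors of myeloid cells, were not called.

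Feedback regulators and kinases of cytokine signalling lay on both sides of the control. Of 41 measurable, 13 (31.7%) were called higher and 5 (12.2%) lower, while 21 had a positive and 20 a negative log2 difference, with a median of 0.33. The 26 at 20 FPKM or more in the control had a median of -0.76. Socs1, an inhibitor of Janus kinases, was at 0.133 and 0 FPKM in the control and 87.4 and 82 in the aberrant-marker runs. Cish, an inhibitor induced through Stat5, was at 11.8 and 12.1 against 160 and 173 FPKM, Socs2 at 30.5 and 33.9 against 244 and 230, and Socs3 at 15.4 and 16.3 against 122 and 125. The kinase genes Pim1 (0.373 and 0.304 against 66.4 and 65.7 FPKM) and Jak2 (12.5 and 13.3 against 155 and 158) rose with them. All 6 were called against each of the 3 references.

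The lower side of that list held signalling proteins that act below Fc and integrin receptors. Fgr, a Src family kinase, was at 124 and 126 against 6.35 and 5.53 FPKM. Pik3ap1, an adaptor of phosphoinositide 3-kinase, was at 211 and 219 against 20.3 and 17 FPKM. Lyn (81.6 and 84.5 against 25.6 and 21.7), Syk (66 and 62.8 against 34.3 and 32.4) and Btk (61.2 and 65.1 against 24.6 and 23.3 FPKM) were lower by less than the size called. Of 34 measurable cytokine and growth factor receptors, 7 (20.6%) were called higher and 4 (11.8%) lower, with a median log2 difference of 0.30. The 24 of these receptors at 20 FPKM or more in the control had a median of -0.49. Il21r was far under 1 read in the control and at 48.4 and 48.7 FPKM, Il2ra at 0.161 and 0.212 against 28.8 and 29.7, Tnfrsf9 (4-1BB) was listed at 0 against 98.5 and 99.4, and Tnfrsf4 (OX40) at 0 against 233 and 241. T cells and mature dendritic cells can both express these receptors. Foxp3, the factor of regulatory T cells, was at 6.76 and 7.27 FPKM in the aberrant-marker runs and far under 1 read elsewhere, and Ctla4 was at 14.9 and 14.2 against 0.

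Of 20 measurable TNF superfamily and checkpoint ligands, which act on T cells among others, 11 were called higher and 1 lower. All 20 were at 20 FPKM or more in the aberrant-marker library and 10 in the control, and those 10 had a median log2 difference of -0.84. Pdcd1lg2 (PD-L2) was at 1.16 and 1.12 against 124 and 119 FPKM, and Cd274 (PD-L1) at 37.5 and 36.5 against 202 and 196. Cd200, which signals to an inhibitory receptor of myeloid cells, was at 20.9 and 20.7 against 265 and 261 FPKM. Tnfsf9, the ligand of 4-1BB, was at 34.3 and 30.9 FPKM against 0, and Pvr, a ligand of the receptors TIGIT and CD226, was at 28.5 and 30.2 against 0. Tnfsf13 (APRIL), a survival factor of plasma cells, was the lower one, at 133 and 137 against 30.1 and 22.8 FPKM. Among cytokines, Il15 was at 0.261 and 0.0863 against 32.6 and 33.7 FPKM. Against the wild type, where its mean was 7.1 FPKM, Il15 was not called. Il6 and Tnf were at 5 FPKM or under in every run of both libraries.

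Among 13 measurable chemokines, of which 3 were at 20 FPKM or more in the control, 8 were higher and 0 lower. Ccl17, a ligand of Ccr4 on T cells, was at 3.75 and 5.41 against 1745 and 1689 FPKM, and Ccl5 at 0.995 and far under 1 read against 533 and 499. Ccl9 was at 35.1 and 39.1 against 196 and 200 FPKM. Cxcl10, a chemokine induced by interferon, was listed at 0 in both libraries, and Cxcl9 was at 3.77 and 3.4 against 0.748 and 0.979 FPKM.

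Alternative activation is the state that IL-4 brings about in macrophages. Of 29 measurable genes on its list, 16 were called higher and 3 lower, and 13 of the 16 against all 3 references. In the aberrant-marker library 27 of the 29 were at 20 FPKM or more and in the control 13, and those 13 had a median log2 difference of -0.70. The whole list summed to 14026 and 13873 FPKM in the control runs and 15087 and 14937 in the aberrant-marker runs. Several of them, among them Ccl17, Ccl22, Mgl2 and Irf4, are also genes of dendritic cells on the lists above. Arg1, an arginase, was at 0.385 and 0.236 against 76.8 and 75.4 FPKM and Mmp12, an elastase of macrophages, at 2.49 and 1.72 against 275 and 283. Their normal-marker means were 36.9 and 115 FPKM, and neither was called against that library. Retnla, a secreted product of alternative activation, was at 73.1 and 74 FPKM against 0, with 2.35 in the normal-marker library.

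Of 34 measurable immediate early and heat shock genes, 25 of them at 20 FPKM or more in the control, 12 were called higher and 0 lower. Atf3, a stress-induced factor, was at 12.2 and 12.6 against 131 and 132 FPKM, while Fos (80.5 and 84.7 against 48.2 and 44.8) and Jun (32.1 and 31.6 against 55.2 and 56 FPKM), which encode the partners of the AP-1 factor, were not called. Of 28 measurable antioxidant genes and known targets of Bach factors, 3 were higher and 3 lower, 10.7% each and near the shares of all genes. Gclc, which makes the precursor of glutathione, was at 10.3 and 9.87 against 198 and 195 FPKM, and the cystine carrier gene Slc7a11 at 2.86 and 2.82 against 31.8 and 34.8. Gsr, which recycles glutathione, was at 253 and 256 against 29.1 and 33 FPKM. Hmox1, a haem-degrading enzyme and classical Bach target, was at 513 and 514 against 96.5 and 141 FPKM and was not called. Of 18 measurable interferon-response genes, 9 of them at 20 FPKM or more in the control, 5 were higher and 1 lower, with Usp18 at 1.96 and 2.33 against 34.2 and 34.4 FPKM.

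Antigen presentation was changed gene by gene. The class II list held 14 measurable genes, of which 4 were called higher (H2-Aa, H2-Eb1, H2-DMb2 and H2-Oa) and 0 lower. Of the 4, 2 were higher against all 3 references, and H2-DMb2 and H2-Oa were not called against the wild type. Cd74, the invariant chain that escorts class II molecules, was the most abundant gene of the aberrant-marker library at 21984 and 21881 FPKM, against 8715 and 8675 in the control, where it ranked 7. Cd74 was under 4-fold apart and was not called. The 22 class II genes held 6.32% and 6.38% of all FPKM in the aberrant-marker runs and 2.75% and 2.74% in the control.

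Of 26 measurable class I and peptide-loading genes, 5 (19.2%) were higher and 2 (7.69%) lower. The classical genes H2-K1 (799 and 799 against 1902 and 1903 FPKM), H2-D1 (3526 and 3486 against 5341 and 5175) and B2m (2825 and 2789 against 5153 and 5046) were higher by less than 4-fold. The genes called were of the Q and M regions: H2-Q7 was at 4.8 and 4.76 against 259 and 285 FPKM, H2-Q8 at 6.62 and 8.37 against 125 and 134, H2-Q4 at 6.29 and 4.88 against 61.7 and 61.4, H2-Q6 at 1.63 and 6.84 against 138 and 109, and H2-M2 at 3.7 and 2.94 against 220 and 198. The Q genes are near-identical copies, reads were divided among them by a model, and their single values are uncertain. The 2 lower genes present other ligands. Cd1d1, which presents lipids to natural killer T cells, was at 73.3 and 65.9 FPKM in the control and listed at 0 in both aberrant-marker runs, with means of 70.1 in the wild type and 53.3 in the normal-marker library. Mr1, which presents vitamin metabolites to mucosal T cells, was at 21.4 and 24.2 FPKM and listed at 0, but its mean was 9.83 in the wild type and it was not called against that library.

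Of 32 measurable members of the apoptosis and survival list, 12 were called higher and 1 lower, and the 12 lay on both sides of cell survival. In the control 19 of the 32 were at 20 FPKM or more. Among protective genes, Serpinb9, an inhibitor of granzyme B, was at 8.58 and 8.06 against 143 and 138 FPKM, and Bcl2a1d, a relative of Bcl2 with near-identical copies, at 108 and 133 against 894 and 939. Among genes that promote death, Pmaip1 (Noxa) was at 8.47 and 7.8 against 122 and 122 FPKM, and Bbc3 (Puma) at 8.85 and 13.1 against 109 and 108. Cdkn1a (p21), a brake on the cell cycle, was at 89.5 and 90.8 against 741 and 757 FPKM. Mcl1 (128 and 126 against 399 and 388) and Bcl2l1 (12.2 and 12.7 against 38.9 and 43.1 FPKM) fell short of the size called. Of 25 measurable proliferation genes, 0 were higher and 9 lower, but 1 of the 9 was lower against all 3 references. That 1 gene was Ube2c, at 40.2 and 34 FPKM against far under 1 read. Top2a was at 8.16 and 7.79 against 0.0235 and 0.0481 FPKM, and Mki67 at 2.99 and 2.94 against 0.799 and 0.8. Both were under the floor of 20 FPKM and are not among the 25.

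Messages for the burning of fat were low, while those of the respiratory chain were close to the control. Of 34 measurable genes of fatty acid oxidation and peroxisomes, 9 were called lower and 0 higher, 8 of the 9 against all 3 references. All 34 were at 20 FPKM or more in the control, 16 of them also with the aberrant markers, and their median log2 difference was -1.49. The whole list held 0.452% and 0.451% of FPKM in the control runs and 0.188% and 0.189% in the aberrant-marker runs. Hadh, the enzyme of the penultimate step of mitochondrial oxidation, was at 66.5 and 67.8 FPKM in the control and at 0 and 0.0784 in the aberrant-marker runs. Cpt1a and Cpt2, the carnitine transferases that bring fatty acids into mitochondria, were at 71.1 and 70 against 16.6 and 16.5 FPKM and at 50.7 and 43.7 against 5.01 and 4.92. The peroxisomal gene Hsd17b4 was lower as well, at 117 and 122 against 14.7 and 16.8 FPKM. Of these 4, Cpt1a was not called against the wild type or the normal-marker library.

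Of 91 measurable genes of the tricarboxylic acid cycle and respiratory chain, 0 were higher and 2 lower. Their median log2 difference was -0.13. Idh1, the cytosolic isocitrate dehydrogenase, was at 202 and 200 against 32.6 and 32.4 FPKM, and Idh3a, a subunit of the mitochondrial enzyme, at 35.1 and 37.2 against 6.23 and 6.46. The summed share of that list was 2.62% and 2.74% in the control runs and 2.41% and 2.39% in the aberrant-marker runs. Glycolysis and the pentose phosphate pathway gave 4 higher (17.4%) and 2 lower (8.70%) of 23, and the median of -0.68 turned to 0.65 against the wild type. Eno2, a second enolase gene (38.6 and 39.7 FPKM against far under 1 read), was higher against all 3 references, while G6pdx, the entry enzyme of the pentose phosphate pathway (96.6 and 95.8 against 12 and 11.8), was lower against all 3.

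The list of eicosanoid and retinoid enzymes held more lower than higher genes. Of its 13 measurable genes, 6 were called lower and 2 higher. Not all of these are enzymes: the lower ones include the receptors Rxra and Rara, and the higher ones Rbp4, a retinol carrier. The other higher gene, the retinoid enzyme gene Aldh1a2, was at 0.153 and 0 against 656 and 655 FPKM. Aldh1a2 was called against all 3 references. Alox5, the 5-lipoxygenase that starts leukotriene synthesis, was at 191 and 193 against 17.4 and 16.8 FPKM. Both enzymes that finish the leukotrienes were lower: Ltc4s was at 498 and 531 against 104 and 119 FPKM, and Lta4h at 85 and 81.4 against 15 and 15.6. Lta4h was not called against the wild type, where its mean was 63.6 FPKM. Of 61 lysosomal genes, 2 (3.28%) were higher and 4 (6.56%) lower, both under the shares of all genes. Their median log2 difference was -0.38. The lower ones were the lysozyme genes Lyz1 and Lyz2, Lipa and Manba, and Lamp1, a membrane protein of lysosomes, was at 969 and 971 against 863 and 883 FPKM.

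Messages for ribosomal proteins were higher as a whole set. All 81 cytosolic ribosomal protein genes had a positive log2 difference, from 0.15 to 1.96 with a median of 1.08, against -0.03 over all genes, and none reached the 4-fold of a call. In the control 80 of them were at 20 FPKM or more, and in the aberrant-marker library 81. They held 7.27% and 7.28% of all FPKM in the control runs and 15.1% and 15.0% in the aberrant-marker runs. The other libraries held 6.27% to 10.0%, and 79 of the 81 genes stood above both runs of every other library. Rps6 was at 364 and 365 against 1432 and 1420 FPKM, Rpl17 at 286 and 322 against 1171 and 1140, and Rps29, the least apart, at 464 and 471 against 528 and 512. The median was 1.06 against the wild type, 1.29 against the normal-marker library, and 1.05 and 1.18 when the columns were scaled to the same total or the same median.

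By transcript length, the 488 other genes with a main transcript under 1000 bases had a median log2 difference of -0.01, and the 3785 longer genes one of -0.07. The 45 short genes of the respiratory chain and cycle had a median of -0.16. Elongation factor genes, looked at after the ribosomal values were seen, stood above the control by less than the size called: Eef1a1 was at 2217 and 2205 against 5166 and 5127 FPKM, Eef2 at 448 and 443 against 803 and 814, and Eef1b2 at 70.2 and 70.8 against 127 and 133.

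**Figure D4:**
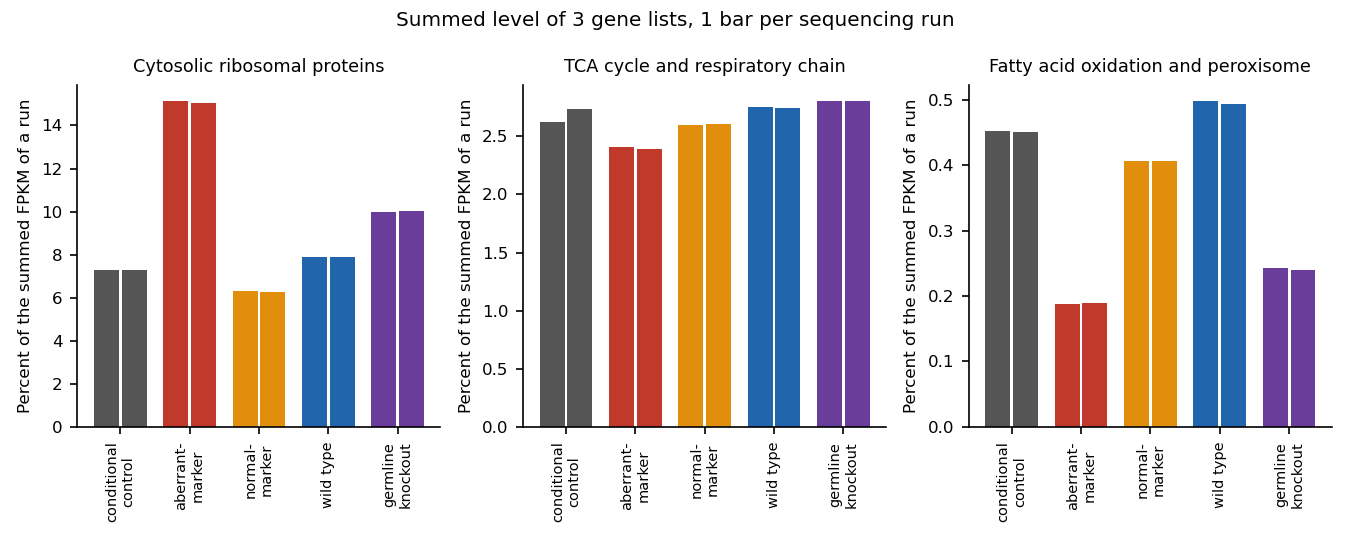
Summed level of 3 gene lists as a percent of all FPKM, with 1 bar for each sequencing run of the 5 libraries. Ribosomal protein genes stood at 15.1% and 15.0% in the aberrant-marker runs and at 10.0% or less elsewhere, the respiratory chain and cycle list at 2.41% and 2.39% against 2.62% and 2.74% in the control, and the fatty acid oxidation list at 0.188% and 0.189% against 0.452% and 0.451%.

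Of 63 measurable actin genes, 6 (9.52%) were higher and 4 (6.35%) lower, at or under the shares of all genes, and all 10 calls held against all 3 references. Fscn1, which bundles actin in the dendrites of mature dendritic cells, was at 309 and 310 FPKM and listed at 0 in both control runs. Cnn2 and Cnn3, calponins, were at 18.1 and 15.8 against 191 and 189 FPKM and at 0 against 28.4 and 28.2, and Tpm1, a tropomyosin, was at 0 against 27.5 and 31.5. Evl, which lengthens actin filaments, was at 153 and 161 against 8.29 and 9.15 FPKM, and Myo1f, a myosin of phagocytes, at 181 and 182 against 34.2 and 35.2. Of 28 measurable regulators of G proteins and small GTPases, 17 of them at 20 FPKM or more in the control, 8 were higher and 1 lower. Rgs1, which shortens chemokine receptor signals, was at 0.0776 and 0 against 1040 and 1028 FPKM, and Rgs10 at 20.3 and 21.4 against 201 and 199. Among adhesion genes, Itgb7, an integrin chain of mucosal lymphocytes and dendritic cells, was at 0 and 0.0459 against 36.2 and 37.5 FPKM. Tspan3, a tetraspanin, was at 4.77 and 7.07 against 671 and 637, while Cd9, another tetraspanin, was at 4757 and 4432 against 638 and 604.

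**Figure D5:**
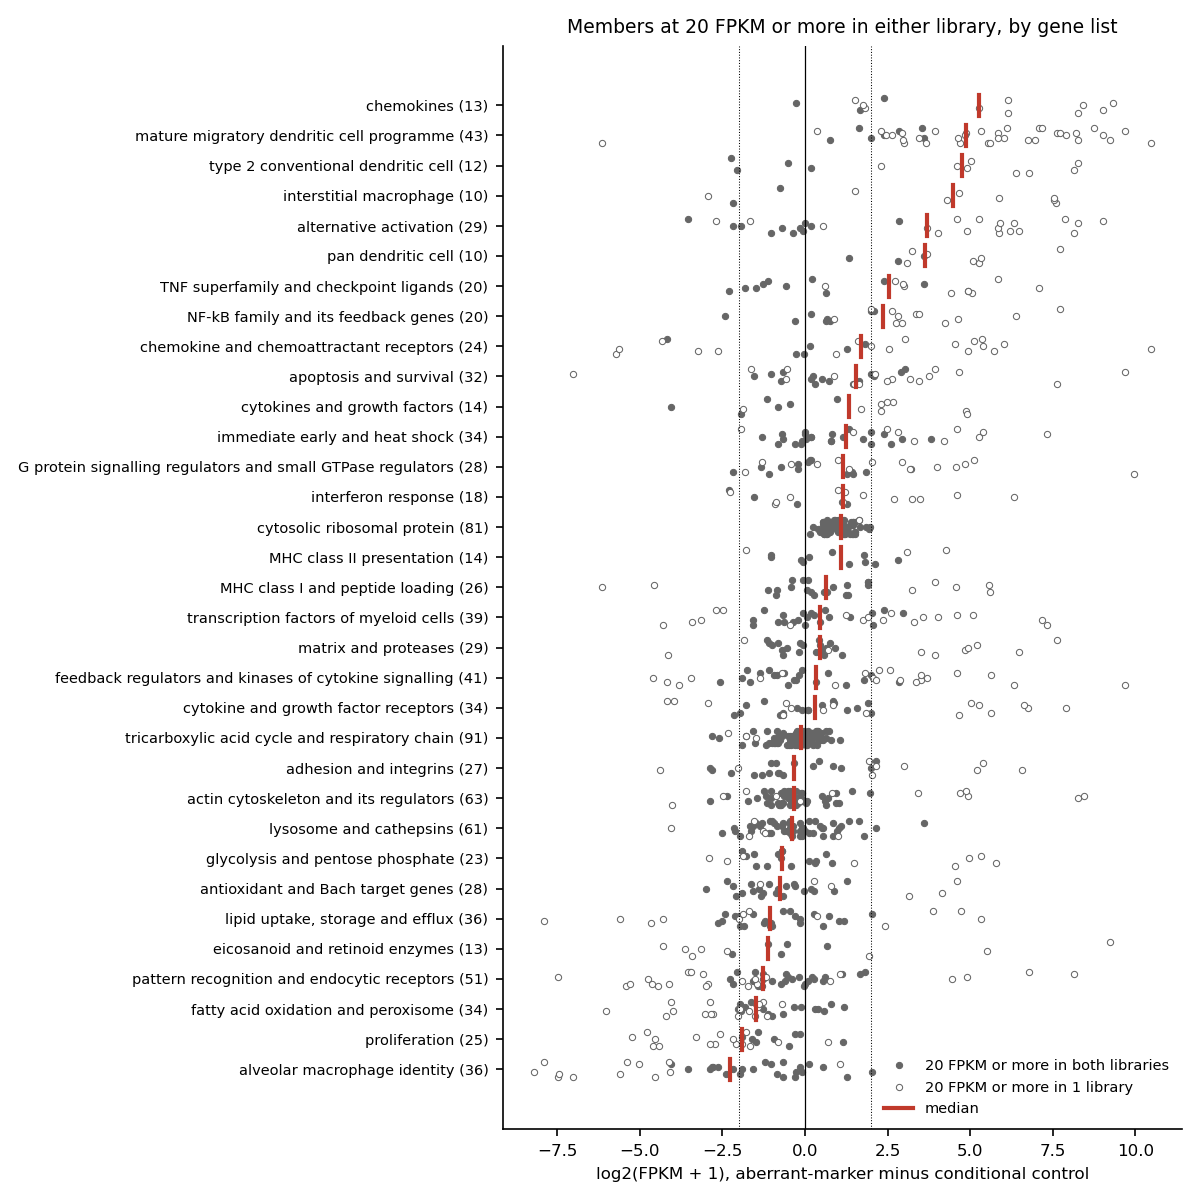
Difference between the libraries for the measurable members of each gene list with 10 or more of them, as aberrant-marker minus conditional control on log2(FPKM + 1). Filled points are genes at 20 FPKM or more in both libraries, open points genes at that level in 1 of them, red bars the list medians and dotted lines the 2 log2 units of a call. The ribosomal protein genes form a tight group right of 0, the respiratory chain genes one around 0, and the identity and fatty acid oxidation genes reach far to the left, while most points of the dendritic cell lists are open.

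The most abundant messages were partly exchanged. Of the 20 most abundant genes of each library, 11 were shared. Ftl1 and Fth1, the ferritin chains that store iron, Tmsb4x, which binds actin monomers, and Chil3 stayed among the first 10 of both. Cst3, a secreted protease inhibitor that is abundant in dendritic cells, ranked 3 in the aberrant-marker library and 64 in the control, and the class II genes H2-Ab1 (1576 against 5561 FPKM) and H2-Aa ranked 39 and 48 in the control and 11 and 9 in the aberrant-marker library. Lyz2, a lysozyme, ranked 1 in the control at 34794 FPKM and 8 in the aberrant-marker library at 7766 FPKM. Mt1, a metallothionein that binds zinc and copper, fell from rank 19 to 650, at 2852 and 2830.1 against 151 and 139 FPKM, and Crip1, a small zinc finger protein, rose from rank 540 to 26, at 183 and 177 against 2537 and 2508. In the wild type, Mt1 was at 641 FPKM.

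The use of transcripts within genes did not stand apart. Of 1140 genes with several transcripts and 20 FPKM or more in both libraries, 18 (1.58%) had a transcript whose share differed by at least 50 percentage points in every pairing of runs. Between wild type and control the same rule gave 23 of 1282 (1.79%). The largest was in Tuba1b, an alpha tubulin, where 1 transcript held 70.9% and 97.6% of the gene in the aberrant-marker runs and 4.34% and 4.48% in the control.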

How the data were processed

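RNA of macrophages was profiled in 10 samples, of which the 4 of the aberrant-marker and conditional control groups are compared here. Per the labels' protocols, cDNA was made from 100 pg of total RNA with a SMARTer ultra low input kit and 18 cycles of PCR, sheared, and made into libraries without molecular identifiers or strand marks, so overlapping genes on opposite strands cannot be told apart. The table deposited by the authors holds FPKM values for 45913 RefSeq transcripts, and the unit was taken from the values and the tool named. Bowtie 1.1.2 and eXpress 1.5.1 are named, per the submitters' processing notes, with no role. Filters are not named, and the genome build of the authors is not given in the sources used here.

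FPKM were added up per Entrez gene (26173 genes) and used as deposited, with a pseudocount of 1 FPKM before the log2. Samples were grouped by their titles, and 0 columns were left out. Depth was read from the lowest values of genes with 1 transcript over 1500 bases, with GENCODE M21 lengths, and is approximate. The 2 columns of a group were averaged, after the comparison given at the start, to 1 library. No test was made, and the size rule was tested on simulated data. The shares of all genes called are given once as the background of the list counts, and again for lists near them. A list gene is called measurable where either library had at least 20 FPKM.

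The genes named follow a rule: Bach2, the top 25 called genes in each direction by size without predicted ones, at most 4 called genes from a list in each direction, and 20 lineage genes whatever their change. This gave 194 genes, 183 of them called, and a selection is described. Further genes in the text were picked with their values in view. The cells compared, the 45 lists (1590 of 1622 symbols found) and these rules were chosen with earlier results of these data known, so that no list is independent support of what it shows. Alternatives were another pseudocount, floor, threshold, scaling, transcript choice and reference, and leaving out each run. The normal-marker reference, scaling to the mean total and the scaled list medians were added after the data were seen. Scripts used Python 3.11.15, pandas 2.3.3 and numpy 2.4.6.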

Additional observations from a re-analysis of the deposited data

How the results depend on the processing

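The counts of called genes moved with the size rule and kept their directions. The 464 higher and 426 lower genes became 233 and 158 with a pseudocount of 10 FPKM, 1097 and 1083 with a floor of 5 FPKM, 220 and 183 with one of 50 FPKM, and 1261 and 1254 with no floor. They became 975 and 1035 at a 2-fold threshold and 287 and 210 at an 8-fold one. Leaving out 1 run gave 474 to 482 and 432 to 448. Scaling the columns to a fixed total, as in TPM, gave 625 and 629, but it also raised every value, so that 5925 genes in place of 4682 passed the floor. Scaling them to their mean total, which leaves the floor in place, gave 447 and 436 with 4659 genes past it, and Fabp5 missed its call there at 1.99. Scaling to the same median gave 491 and 368, with the median of all genes moved from -0.03 to 0.11. No gene called here was called in the opposite direction under any of these settings or with the wild type or the normal-marker library as the reference. The 18 genes with changed transcript shares became 3 with a floor of 50 FPKM in both libraries and 25 to 29 when 1 run was left out.

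The median of the cytokine and growth factor list was 1.33 and turned to -0.61 against the normal-marker library. Single genes that turned were Gdf15 (-0.32 against the wild type and -0.61 against the normal-marker library), Fbp1 (-0.51 against the latter) and Hk3 (-0.21 against the latter). The cause was not tested. The median of the adhesion list, -0.34, was 0.04 with median scaling and 0.06 against the wild type. With the normal-marker library as the reference 39 of the 183 called genes among the 194 named lost their call, and with the wild type 29. No paired analysis was possible because the labels number the samples singly and give no shared replicate numbers. Levels under about 0.06 FPKM are less than 1 read on 2 kb, and a gene listed at 0 in 1 library was not seen at this depth and input.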

Other observations

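Among the largest differences were genes on no list, several better known from other tissues. Arc, a synaptic protein of neurons, was at 103 and 102 FPKM in the aberrant-marker runs and listed at 0 in the control and the normal-marker library. Ramp3, which directs peptide hormone receptors to the surface, was at 104 and 101 FPKM, Grasp, a scaffold of membrane receptors, at 99.1 and 95.7, and Flrt3, an adhesion protein, at 81.2 and 80.2, and all 3 were listed at 0 in the control, wild-type and normal-marker libraries. Basp1, a membrane protein of growing axons, was at 3.69 and 4.54 against 462 and 454 FPKM, and Slc27a3, a fatty acid transport protein, at 0.115 and 0.059 against 138 and 140. Tmem176a was at 4.13 and 4.18 against 95 and 105 FPKM.

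On the lower side, Gal, the neuropeptide galanin, was at 286 and 303 FPKM in the control and 0.773 and 0.796 in the aberrant-marker runs. Slc6a4, the serotonin transporter, was at 40.5 and 40.2 against 0.203 and 0.156 FPKM, and Adcy3, an adenylate cyclase, at 83.9 and 81.3 against 0.0802 and 0.00113. Pilra, an inhibitory receptor of myeloid cells, was at 187 and 187 against 3.33 and 3.99 FPKM. Ucp3, a mitochondrial carrier, was at 59.6 and 55.9 FPKM in the control and listed at 0. Slc6a4 was at 3.21 FPKM in the normal-marker library and was not called against it. Sdhaf1, an assembly factor of respiratory complex II, was at 99.2 and 90.2 FPKM in the aberrant-marker runs and listed at 0 in the control, but at 39.9 FPKM in the wild type, and was not called against that library.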
